A study of Sus scrofa with 8 samples.

Results

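The insulin-like growth factor (IGF) system was described in the endometrium, the inner lining of the uterus, of pregnant and non-pregnant gilts (young female pigs). Its 10 named genes are the ligands IGF1 and IGF2, the receptors IGF1R and IGF2R, and the binding proteins IGFBP1 to IGFBP6. They were found in the read count tables by Entrez gene identifier, and where a gene had several transcripts the one with the most reads was taken. A total of 8 of the 10 had a transcript among the 21064 genes of the tables. IGF2 and IGFBP2 had no matching row and were not analysed here. Each of the 8 genes had 1 transcript model, and none of these models shared exonic bases with another gene. The low-count filter, with a minimum of 10 counts, kept 7 of the 8. IGFBP1 reached it in too few libraries and was left out of the test. It had 0 reads in every control and 9 in pregnant replicate 4.

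The study compared 4 pregnant German Landrace gilts with 4 non-pregnant controls on day 14 after insemination, by RNA-seq of poly(A) RNA. All gilts were prepuberal and had received PMSG (750 IU) and, 72 h later, hCG (500 IU), gonadotropins that set the time of ovulation. The pregnant group was given Pietrain semen 24 h and 36 h after hCG. The controls were given the supernatant of centrifuged semen of the same boar, and their labels name day 14 of the estrous cycle. Pregnant samples came from hyperemic zones, where embryos attach, and control samples from comparable places, so pregnancy and the choice of these zones cannot be told apart. Each library is 1 animal, with RNA of 3 places along 1 uterine horn pooled (RNA integrity numbers 7.0 to 8.8 over the series). In such bulk tissue, fewer cells of a type and less RNA per cell cannot be told apart.

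IGF1 and IGF2 are secreted peptides that act on growth, survival and metabolism through IGF1R, a receptor tyrosine kinase related to the insulin receptor. IGF2R, the cation-independent mannose 6-phosphate receptor, carries IGF2 to lysosomes. The binding proteins hold IGFs in extracellular fluid, and proteases that cut them release the ligand. In the pig uterus, IGF1 is made by the endometrium and secreted into the lumen. In sheep and cattle, IGFBP1 is known as an endometrial gene of early pregnancy, and in human endometrium it marks decidualised stroma.

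In pregnant endometrium the mRNA of the ligand IGF1 and of its receptor IGF1R was lower, and IGFBP1 had reads in all 4 pregnant animals and in 0 of 4 controls. IGF1 was at 25.8 ± 8.82 CPM (read counts scaled to a common library size; SD, n = 4) in controls and 15.3 ± 2.65 in pregnant animals, and IGF1R at 108 ± 25.9 and 71.0 ± 4.64. The 4 other binding proteins measured (IGFBP3 to IGFBP6) and IGF2R did not pass the test. By edgeR's quasi-likelihood test at an adjusted p of 0.05, 2 of the 7 tested members were lower and 0 higher. Before adjustment, 4 of the 7 had p under 0.05, as did 34.3% of all transcripts. As higher, DESeq2 passed 2 members and limma voom 1. Of all 18783 transcripts tested 21.3% passed, 10.1% as lower and 11.2% as higher. The median log2 change, pregnant over control, was −0.25 over the 7 tested members and −0.02 over all transcripts.

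**Figure D1:**
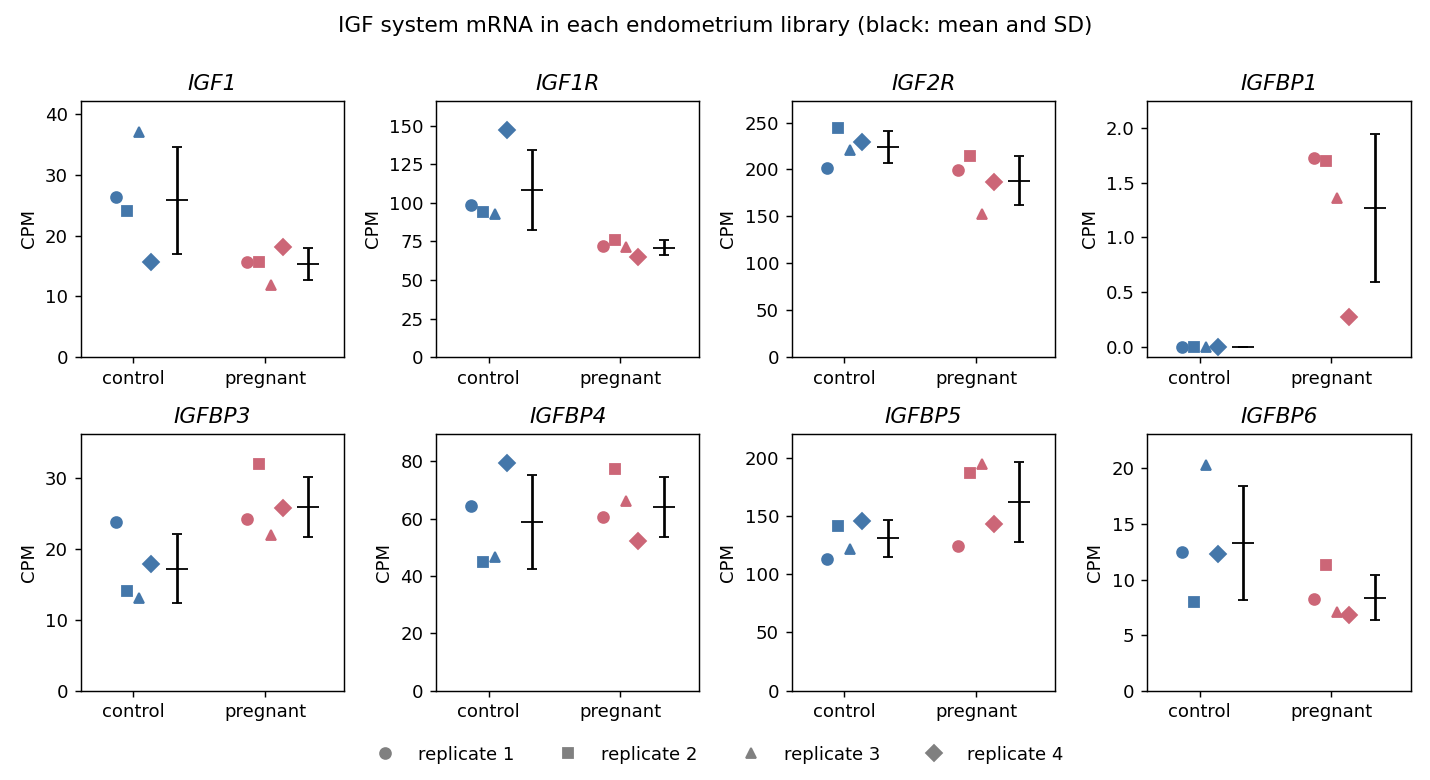
CPM (y axis) of the 8 IGF system genes in the 4 control (blue) and 4 pregnant (red) libraries, with 1 symbol per replicate number and the mean and SD in black. IGF1R lies between 64.9 and 76.2 CPM in the pregnant libraries, below all 4 controls, while IGFBP1 is at 0 in all 4 controls.

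IGF1, the ligand, was measured over a model with 3 exons and a length of 561 bases (Entrez gene 397491, Sscrofa10.2 chromosome 5, 85705317 to 85773706). Its level was 26.3, 24.1, 37.1 and 15.7 CPM in control replicates 1 to 4 and 15.6, 15.6, 11.8 and 18.2 CPM in pregnant replicates 1 to 4. Control replicate 4 lay within the range of the pregnant animals, and the other 3 controls lay above it. The log2 change was −0.75 ± 0.24 (SE; 95% interval −1.28 to −0.22), with an edgeR adjusted p = 0.047. This call was close to the threshold. IGF1 passed under 5 of 15 other settings (edgeR, DESeq2 or limma voom adjusted p = 0.00833 to 0.131), and it did not pass when any 1 library other than control replicate 4 was left out. Without control replicate 4 the log2 change was −0.93 (edgeR adjusted p = 0.00833).

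IGF1R, the signalling receptor for both ligands, has a model of 21 exons and a length of 4233 bases (Entrez gene 397350, chromosome 1, 153523943 to 153853775). Its level was 98.8, 93.9, 92.9 and 147 CPM in control replicates 1 to 4 and 71.7, 76.2, 71.2 and 64.9 CPM in pregnant replicates 1 to 4. The groups did not overlap, which among the 7 tested members held for IGF1R alone, and for 26.1% of all transcripts tested. The groups did not overlap for IGFBP1 either, which was not tested. The log2 change was −0.61 ± 0.16 (SE; 95% interval −0.95 to −0.26; edgeR adjusted p = 0.0193). Without control replicate 4, the highest library, it was −0.42 and still passed (edgeR adjusted p = 0.0215). Without pregnant replicate 4, the lowest, it did not pass (edgeR adjusted p = 0.0588; range over the other settings 0.00859 to 0.0588).

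IGF2R, the receptor that clears IGF2, has a model of 48 exons (Entrez gene 397214, chromosome 1, 9168320 to 9271327). It was at 202, 244, 221 and 229.6 CPM in control replicates 1 to 4 and at 199, 214, 153 and 187 CPM in pregnant replicates 1 to 4. The groups overlapped, with pregnant replicate 3 the lowest library. The log2 difference of −0.25 ± 0.13 did not pass (SE; 95% interval −0.54 to 0.03; edgeR adjusted p = 0.193), nor did it under any of the 15 other settings.

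IGFBP1 and IGFBP3 are neighbours on chromosome 18. Their models stand tail to tail on opposite strands with 6685 bases between them, IGFBP3 at 54851167 to 54855698 (Entrez gene 448812) and IGFBP1 at 54862384 to 54866696 (Entrez gene 397270). IGFBP1 binds both ligands and can respond to insulin and to progesterone, and IGFBP3 is the main carrier of IGFs in blood.

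IGFBP1 had 0 reads in each of the 4 control libraries and 49, 65, 41 and 9 reads in pregnant replicates 1 to 4, or 1.73, 1.7, 1.36 and 0.275 CPM. All 4 pregnant animals thus lay above all 4 controls, with pregnant replicate 4 well below the other 3. Against a floor of 3 counts over the control group, the 164 reads pooled over the pregnant animals make IGFBP1 54.0-fold higher. Without pregnant replicate 2 this pooled value was 46.3-fold. The floor bounds the control side only and the pregnant reads are taken as counted, so these are not lower bounds for each animal. Groups that do not overlap give a two-sided exact permutation test of 4 against 4 its smallest p (0.0286), so this p adds nothing to the separation. With no filter on low counts IGFBP1 passed in edgeR (adjusted p = 9.51e-04). IGFBP1 was near the lower end of what this depth could measure. PCR reads without molecular identifiers are not independent molecules, so the floor covers counting error of the controls only.

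Most of the conceptus markers that had a row had few reads in the same libraries. Library totals ran from 28035007 to 41016150 reads. Of 12 conceptus markers 9 matched, while CYP11A1, CYP19A1 and CYP19A3 had no matching row and were not measured. The summed level of the 9 was 3.32 to 6.51 CPM in controls and 6.13 to 9.12 CPM in pregnant animals. GATA3 was its largest term (2.74 ± 0.901 and 6.47 ± 1.38 CPM). The aromatase gene CYP19A2 had 0 reads in each control and 2, 2, 6 and 4 in pregnant replicates 1 to 4. The embryonic transcription factor gene POU5F1 had 10 reads in pregnant replicate 3 and 0 in the other 7 libraries, and CDX2 had 4 in pregnant replicate 1 and 0 in the others. Of the 3 markers tested, GATA3, which T cells and epithelia express too, was higher (log2 change 1.24, edgeR adjusted p = 0.00823). The other 2 did not pass: NANOG had 44, 24, 58 and 8 reads in control replicates 1 to 4 and 10, 6, 2 and 20 in the pregnant ones (log2 difference −1.86, edgeR adjusted p = 0.0901), and HSD3B1 differed by −0.02. The interferon gene IFNG, also made by T cells, had 0, 2, 0 and 2 reads in controls and 4, 13, 5 and 4 in pregnant animals. CYP17A1 had 2, 4, 0 and 5 reads in control replicates 1 to 4 and 2, 1, 0 and 4 in the pregnant ones. AFP had 2 reads in control replicate 2 and 0 in the other 7 libraries. The part of conceptus RNA in the IGFBP1 reads was not tested.

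IGFBP3 was at 23.8, 14.0, 13.1 and 17.8 CPM in control replicates 1 to 4 and 24.2, 31.9, 21.9 and 25.7 CPM in pregnant replicates 1 to 4. Control replicate 1 lay within the pregnant range and the other 3 controls lay below it. The log2 difference of 0.59 ± 0.20 had a 95% interval of 0.14 to 1.04 and missed the threshold (edgeR adjusted p = 0.0634). IGFBP3 passed without control replicate 1 (log2 change 0.81, edgeR adjusted p = 0.0108), with DESeq2 (adjusted p = 0.0436) and with limma voom (adjusted p = 0.0457), and the range over the 15 other settings was 0.0108 to 0.173.

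IGFBP4 and IGFBP5 were the binding proteins with the most reads. IGFBP5, which binds to extracellular matrix (Entrez gene 397182, chromosome 15, 131682266 to 131684607), was at 113, 141, 122 and 146 CPM in control replicates 1 to 4 and 124, 187, 195 and 143 CPM in pregnant replicates 1 to 4. Pregnant replicates 2 and 3 lay above all controls and the other 2 within their range. The log2 difference was 0.32 ± 0.16 (SE; 95% interval −0.04 to 0.67; edgeR adjusted p = 0.197). IGFBP4, an inhibitor of IGF action that the protease PAPPA cuts (Entrez gene 100144490, chromosome 12, 22276125 to 22289601), ran from 44.8 to 79.5 CPM in controls and from 52.2 to 77.2 CPM in pregnant animals. Its log2 difference was 0.12 ± 0.20 (SE; 95% interval −0.31 to 0.55; edgeR adjusted p = 0.703). Neither gene passed under any of the 15 other settings, and a difference larger than 0.55 log2 units lies outside the interval of IGFBP4.

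IGFBP6, which prefers IGF2 over IGF1, was the scarcest binding protein in controls apart from IGFBP1 (Entrez gene 100101923, chromosome 5, 18768121 to 18772051). It was at 12.5, 7.97, 20.3 and 12.3 CPM in control replicates 1 to 4 and 8.25, 11.3, 7.11 and 6.83 CPM in pregnant replicates 1 to 4. Control replicate 2 lay within the pregnant range and control replicate 3 was the highest library. The log2 difference of −0.66 ± 0.27 did not pass (SE; 95% interval −1.27 to −0.06; edgeR adjusted p = 0.114). It passed without control replicate 2 (−0.84, edgeR adjusted p = 0.0376) and was −0.38 without control replicate 3 (0.318; range over the other settings 0.0376 to 0.318).

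Levels were compared between genes per kilobase of transcript model (RPKM, from the same scaled counts). Of the 8 models 7 have a length that is a multiple of 3, as coding lengths are, but the coding part of each model was not checked. The exception is IGFBP5 (634 bases), and its RPKM and its share below rest on that length. Whether the IGFBP5 model is complete was not tested. In controls the order of the mean RPKM was IGFBP5 (206 ± 25.0), IGFBP4 (75.4 ± 21.0), IGF1 (46.0 ± 15.7), IGF2R (29.7 ± 2.31), IGF1R (25.5 ± 6.13), IGFBP3 (20.7 ± 5.87), IGFBP6 (12.4 ± 4.79) and IGFBP1 (0). IGFBP5 lay above IGFBP4 in every control, with ranges of 178 to 231 and 57.5 to 102 RPKM. From IGFBP4 down to IGFBP6, each gene's range overlapped that of the next.

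In pregnant animals the order of the mean RPKM was IGFBP5 (256 ± 54.0), IGFBP4 (82.0 ± 13.4), IGFBP3 (31.2 ± 5.14), IGF1 (27.3 ± 4.72), IGF2R (24.9 ± 3.46), IGF1R (16.8 ± 1.1), IGFBP6 (7.85 ± 1.93) and IGFBP1 (1.51 ± 0.815). IGFBP3 thus ranked 6 in controls and 3 in pregnant animals. IGFBP3 overlapped with IGF1, and IGF1 with IGF2R. IGFBP3 (26.4 to 38.4 RPKM) did not overlap with IGFBP4 above it (67.0 to 99.0). IGF1R (15.3 to 18.0 RPKM) did not overlap with IGF2R above it (20.2 to 28.3) or with IGFBP6 below it (6.4 to 10.6). The plot of RPKM by gene shows these ranges.

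**Figure D2:**
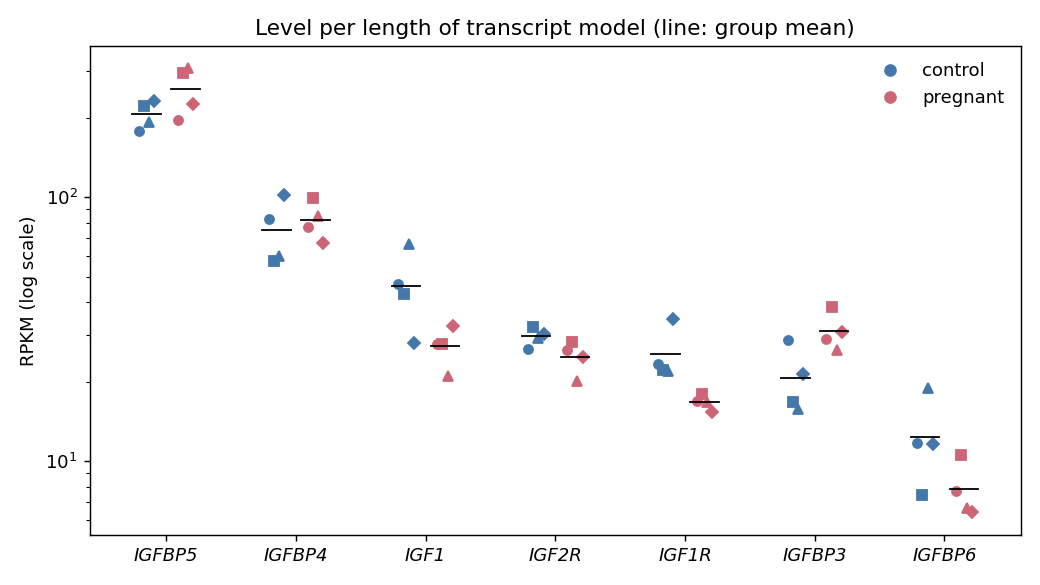
RPKM on a log scale (y axis) of 7 IGF system genes in control (blue) and pregnant (red) libraries, ordered by the control mean, with 1 symbol per replicate number and a black line at each group mean; IGFBP1, at 0 in controls, is not drawn. IGFBP5 has the highest level in all 8 libraries, from 178 to 308 RPKM.

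Among the binding proteins measured, IGFBP5 had the largest share of the summed RPKM in all 8 libraries. It held 65.6% ± 5.98 (SD, n = 4) in controls and 67.4% ± 3.9 in pregnant animals, and IGFBP4 23.7% ± 4.57 and 21.8% ± 2.27. IGFBP3 held 6.61% ± 1.97 and 8.36% ± 1.5. IGFBP6 held 3.91%, 2.45%, 6.61% and 3.16% in the controls, replicates 1 to 4, and 2.47%, 2.39%, 1.56% and 1.94% in the pregnant animals, in the same order. IGFBP1 held at most 0.663%, in pregnant replicate 1. These shares are a description of 5 genes, without IGFBP2, and have no test.

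**Figure D3:**
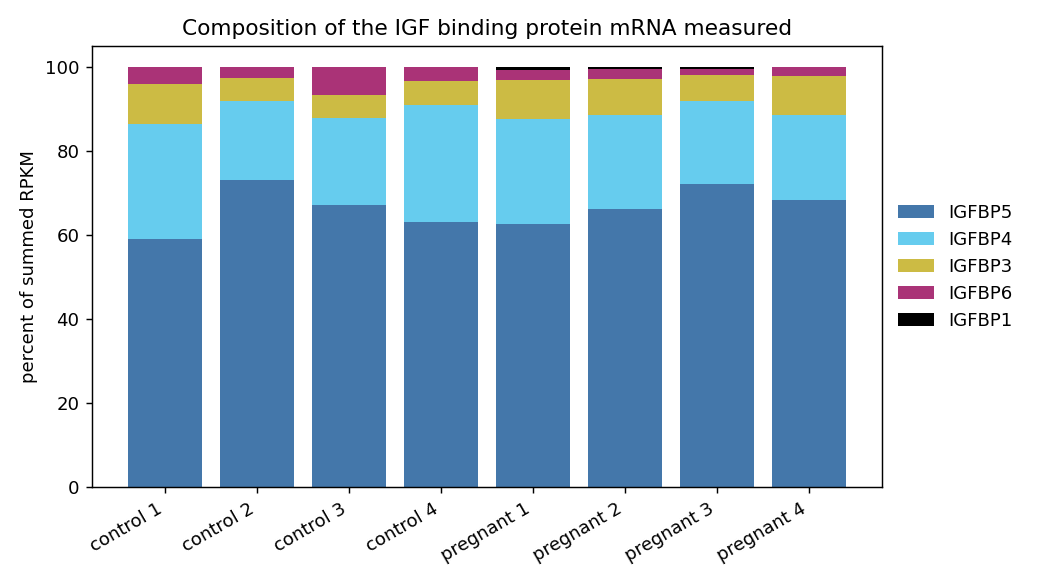
Percent of the summed RPKM of the 5 binding proteins measured (y axis) held by each, in the 8 libraries (x axis). IGFBP5 (blue) takes 59.1% to 73.1% of each bar, and IGFBP1 (black) appears as a thin band in pregnant replicates 1 to 3 and is too thin to see in pregnant replicate 4 (0.0993%).

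Ratios within a library do not depend on the library scaling. The summed RPKM of the 5 binding proteins was 6.4, 7.07, 4.34 and 13.1 times that of IGF1 in the controls, replicates 1 to 4, and 11.2, 16.0, 20.3 and 10.2 times in the pregnant animals. Control replicate 4 was again the control within the pregnant range. The ratio of IGFBP3 to IGFBP6 reads was 0.648 to 1.9 in controls and 2.81 to 3.75 in pregnant animals, with no overlap. Both ratios were chosen after the values were seen and are given without a test.

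The genes most like the 2 members that passed were sought among 10021 genes with a symbol, by the root mean square difference of the log2 CPM profiles over the 8 libraries, each centred on its mean. For IGF1 they were HMGB3, a chromatin protein (difference 0.126 log2 units), and CDK18, a protein kinase (0.155). For IGF1R they were TRMT1, a transfer RNA methyltransferase (0.128), and RRP12, a ribosome assembly factor (0.132). Their log2 changes between pregnant and control were −0.63, −0.70, −0.47 and −0.50, which lie near those of the members because the genes were picked on the same libraries.

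Other genes of the pathway changed in both directions. Of 56 tested pathway genes outside the members, 10 were higher and 4 lower in pregnant endometrium (62 of 68 listed genes had a row). These 25.0% compare with 21.3% of all transcripts, a share near the background. Their median log2 change was 0.19. The count was 16 without control replicate 4, and 9, 8 and 8 without control replicate 2, pregnant replicate 2 and pregnant replicate 4.

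Genes that set how much IGF is available were mostly not called. Of 11 tested genes 2 were higher, 0 lower and 9 did not pass, with a median log2 change of 0.09. IGFBP7, a related protein with low affinity for IGFs, rose from 821 ± 92.7 to 1169 ± 135 CPM, a log2 change of 0.51 ± 0.14 (edgeR adjusted p = 0.0229). ADAM9, a membrane protease, rose by 0.54 ± 0.17 (edgeR adjusted p = 0.0392). IGFBP7 was lost on leaving out any 1 of control replicates 2, 3 and 4 and pregnant replicates 1 and 2 (edgeR, highest adjusted p = 0.0786), and ADAM9 without any 1 library except control replicate 4 (edgeR, highest adjusted p = 0.113). PAPPA, the protease that cuts IGFBP4, was at 4.45 ± 1.07 CPM in controls and 7.22 ± 1.91 in pregnant animals (edgeR adjusted p = 0.0746). STC1 had the largest log2 difference of the tested genes in this list (1.66 ± 0.64) and did not pass (edgeR adjusted p = 0.0955). Its level was 74.5 ± 73.5 CPM in controls and 236 ± 142 in pregnant animals. Of the 15 other settings, STC1 passed only without control replicate 4 (edgeR adjusted p = 0.00221). IGFALS, the acid-labile subunit that binds IGF and IGFBP3 in serum, was at 11.3 ± 0.835 and 11.2 ± 0.98 CPM, with a 95% interval of the log2 difference of −0.32 to 0.28.

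The insulin receptor gene INSR moved opposite to IGF1R. INSR was at 17.8, 14.1, 19.9 and 20.4 CPM in control replicates 1 to 4 and 24.1, 30.1, 26.2 and 27.9 CPM in pregnant replicates 1 to 4, with no overlap. Its log2 change was 0.58 ± 0.15 (SE; 95% interval 0.25 to 0.91; edgeR adjusted p = 0.0182), and it did not pass without pregnant replicate 2 (edgeR adjusted p = 0.0612). Per length, INSR stood at 0.272 to 0.42 of the IGF1R level in controls and at 0.657 to 0.84 in pregnant animals. This ratio was chosen after the values were seen and is given without a test. Neither gene overlapped between the groups and they moved in opposite directions, so the ratio had to separate. Its separation adds nothing to the values of the single genes. IGF2BP2, an mRNA-binding protein named for its binding to IGF2 mRNA, fell from 55.8 ± 9.48 to 30.3 ± 2.24 CPM, a log2 change of −0.88 ± 0.14 (edgeR adjusted p = 0.00127) and passed under all 15 other settings. The other tested genes of this list of 4, INSRR and IGF2BP3, did not pass.

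Of 11 tested receptor substrates and adaptors 2 were higher and 1 lower, with a median log2 change of 0.13. GAB1, a docking protein that links receptors to PI3-kinase, rose from 17.7 ± 3.0 to 35.3 ± 6.93 CPM, a log2 change of 1.00 ± 0.18 (edgeR adjusted p = 0.00258) and passed under all 15 other settings. SOS1, an activator of RAS, rose by 0.57 ± 0.14 (edgeR adjusted p = 0.0185; 0.059 without pregnant replicate 4). The adaptor SH2B1 was lower by little (log2 change −0.37 ± 0.11, edgeR adjusted p = 0.04) and passed under 8 of 15 other settings. IRS1, the main substrate of IGF1R in this list, was at 24.8 ± 5.09 and 21.5 ± 4.38 CPM (edgeR adjusted p = 0.467). IRS2 matched no row and was not analysed here.

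In the PI3-kinase, AKT and MTOR list, 1 of 22 tested genes was higher, 2 were lower and 19 did not pass, with a median log2 change of 0.28. The regulatory subunits of PI3-kinase moved apart. PIK3R2 was at 117, 92.4, 92.3 and 112 CPM in control replicates 1 to 4 and 67.6, 50.7, 44.3 and 50.6 CPM in pregnant replicates 1 to 4 (log2 change −0.96 ± 0.15, edgeR adjusted p = 0.00129). PIK3R1 was at 40.3 to 82.6 CPM in controls and 90.0 to 128 CPM in pregnant animals (log2 change 0.79 ± 0.22, edgeR adjusted p = 0.0245), and was lost on leaving out any 1 of control replicate 3, pregnant replicate 3 and pregnant replicate 4 (edgeR, highest adjusted p = 0.0716). The kinase gene AKT1 was at 64.3 to 72.3 CPM in controls and 43.9 to 46.7 CPM in pregnant animals (log2 change −0.60 ± 0.10, edgeR adjusted p = 0.0017). PIK3R2 and AKT1 passed under all 15 other settings. MTOR was at 102 ± 8.42 and 99.3 ± 9.92 CPM, with a 95% interval of the log2 difference of −0.29 to 0.22. FOXO1, a transcription factor that AKT inhibits and that can act on the IGFBP1 promoter, was at 69.7 ± 16.9 and 99.4 ± 7.78 CPM and missed the threshold (edgeR adjusted p = 0.0636).

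Growth hormone acts on IGF1 in liver through GHR, JAK2 and STAT5. Of 8 tested genes of this axis 4 were higher, 0 lower and 4 did not pass, with a median log2 change of 0.49. Of all transcripts tested, 11.2% passed as higher. GH1 had at most 14 reads in any library and GHRHR at most 4, and neither was tested. SOCS3 had no matching row. GHR itself was at 5.86 ± 2.07 CPM in controls and 4.84 ± 0.58 in pregnant animals (edgeR adjusted p = 0.47). SOCS1, a signalling inhibitor, rose from 22.1 ± 12.2 to 118 ± 22.6 CPM (edgeR adjusted p = 7.27e-04) and passed under all 15 other settings, and JAK2 rose by 1.08 ± 0.28 (edgeR adjusted p = 0.0188; 0.0598 without pregnant replicate 4). STAT5A (0.60 ± 0.18) and CISH (0.79 ± 0.24) rose with edgeR adjusted p = 0.0362 and 0.0411, and passed under 8 and 9 of 15 other settings. JAK2 and SOCS1 also serve interferon and cytokine signalling. In the same libraries 12 of 12 T and cytotoxic cell markers and 8 of 10 macrophage markers were higher and 1, MRC1, was lower, with summed levels of 27.5 to 73.3 against 148 to 244 CPM and of 382 to 695 against 1128 to 1487 CPM. Their part in these changes was not tested.

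**Figure D4:**
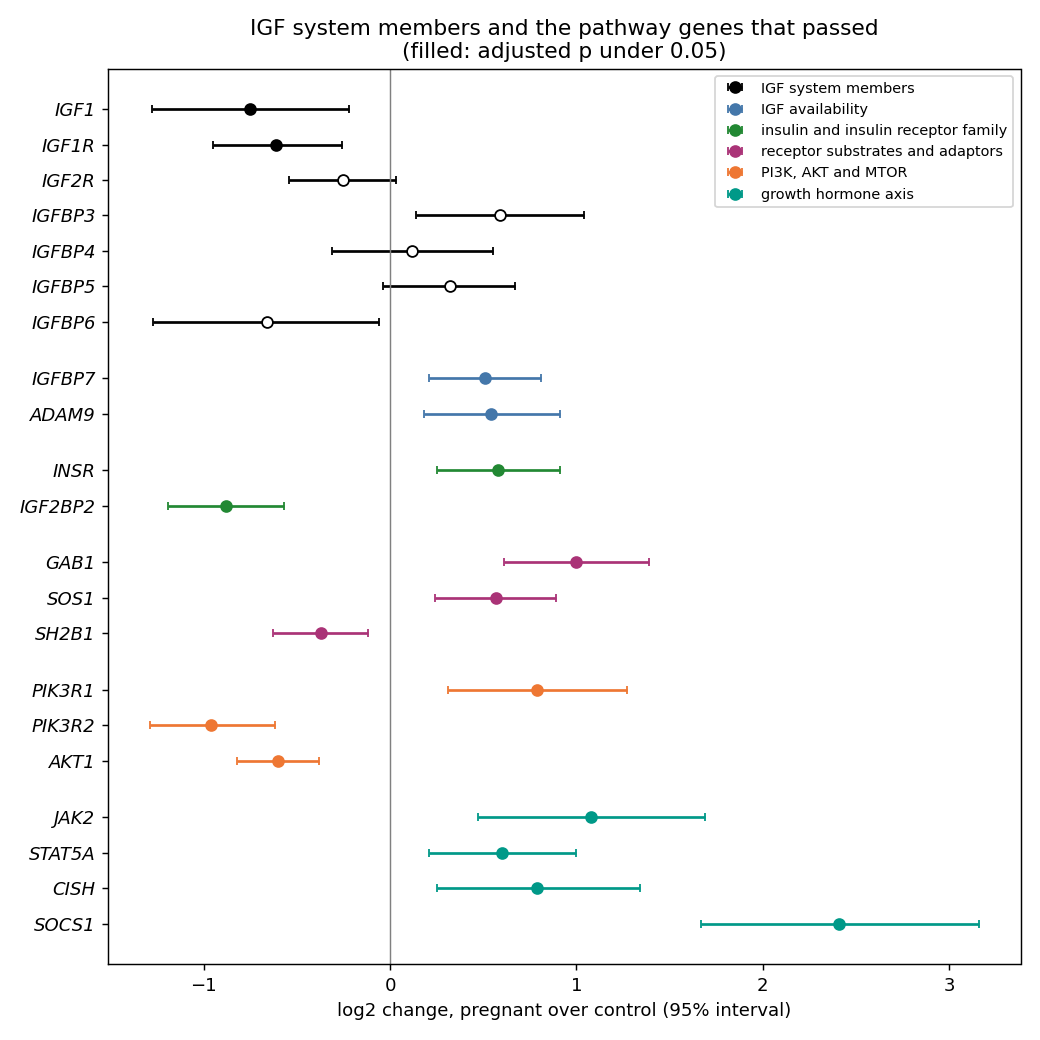
Log2 change of pregnant over control with its 95% interval (x axis) for the 7 tested IGF system genes (black) and the 14 other pathway genes that passed, coloured by list; filled points passed an adjusted p of 0.05. IGF1 (−0.75) and IGF1R (−0.61) are filled and left of 0, and INSR (0.58) is right of it.

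Markers of the cell types that make up endometrium moved in part beside these genes. Of 13 tested stromal fibroblast markers 3 were higher and 3 lower, with a median log2 change of −0.05. Their summed level was 28052 to 34157 CPM in controls and 18891 to 27880.1 CPM in pregnant animals, with the collagen gene COL3A1 as its largest term (14899 ± 1327 and 9338 ± 1829.8 CPM). Of 9 smooth muscle markers 0 were higher and 5 lower, and their summed level was 1061 to 1448 CPM in controls and 752 to 1015 CPM in pregnant animals. Of 13 epithelial markers 1 was higher and 4 lower, with summed levels of 2716 to 4160.1 and 2101 to 2854 CPM. Of 13 vascular endothelial markers 2 were higher and 0 lower. All matched markers of these 4 lists had reads. The part of cell composition in the values of IGF1 and IGF1R was not tested.

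The plot of log2 changes by setting shows how each member's value moved when the same libraries were refitted. IGF1R, IGF1, IGF2R and IGFBP6 stayed below 0, and IGFBP3, IGFBP4 and IGFBP5 above 0, under all 15 other settings. IGFBP4 came down to 0.01 without control replicate 2 (edgeR adjusted p = 0.971). Because the settings share libraries, a kept direction is not independent support.

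**Figure D5:**
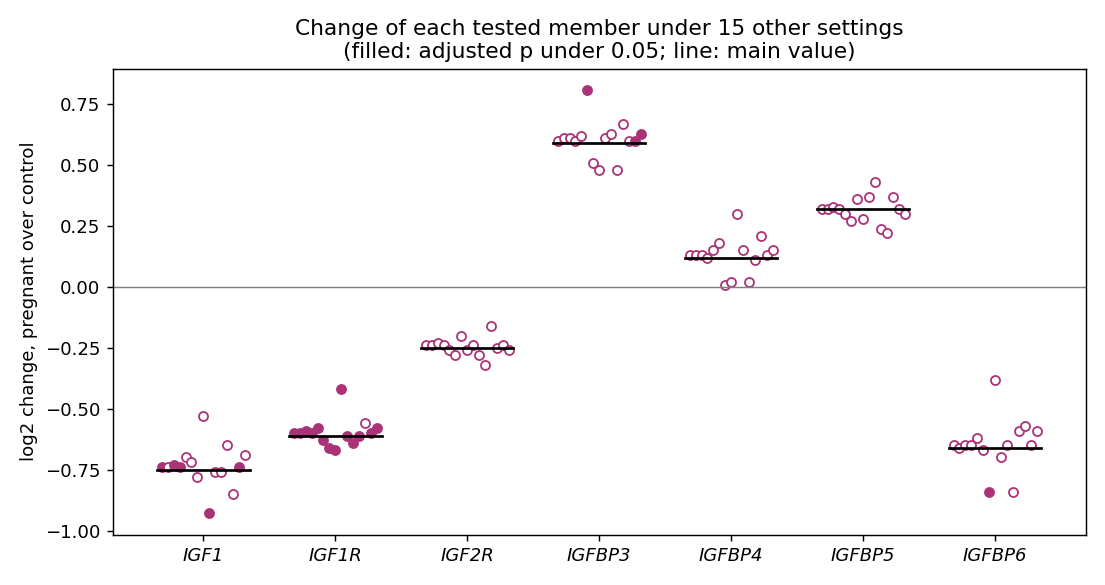
Log2 change of pregnant over control (y axis) of the 7 tested IGF system genes under 15 other settings (points, filled where the adjusted p was under 0.05) and as reported (black line). The points of IGF1R run from −0.67 to −0.42 and all but 1 are filled, and those of IGF1 run from −0.93 to −0.53 with 5 filled.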

How the data were processed

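Each of the 8 libraries has a table of unnormalized counts of reads per transcript, deposited with the transcript models of a merged assembly and of Entrez genes. Per the submitters' processing notes, CASAVA 1.6, TopHat 1.4, Cufflinks 1.3 and DESeq were used with genome build Sscrofa10.2; the counting tool is not given in the sources used here. Total counts ran from 28035007 to 41016150. The labels' protocols describe no step that marks strand.

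Symbols came from a RefSeq gene table (assembly Sscrofa11.1, names only), which matched 16270 of 21064 genes by Entrez ID. One fit of all transcripts used edgeR 4.0.16 (R 4.3.3; scaling by TMM, the filterByExpr filter at 10 counts, a quasi-likelihood test in its robust form, group as the only term), with Benjamini-Hochberg adjustment over 18783 transcripts. Standard errors and intervals were derived from the F statistics. CPM use the TMM-scaled library sizes. The alternatives included DESeq2 1.42.0 and limma 3.58.1. The fit was tested on simulated data. No replicate pair agreed within sampling noise.

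The members and lists were chosen with earlier results of these data known. Named were all members and the pathway genes that passed, at most 6 per list, with some others given as context and chosen after their values were seen.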

Additional observations from a re-analysis of the deposited data

Results flagged for a closer look

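IGF1R in control replicate 4 stood at 147 CPM, far above the other 3 controls (92.9 to 98.8 CPM), so that most of the range of the control group was the gap to this library. The limit used for such gaps is passed by chance in about 1 in 20 groups, and 15 groups of member values were examined. The same library also had the lowest IGF1 (15.7 CPM) and the highest IGFBP4 (79.5 CPM) and IGFBP5 (146 CPM) among controls. The IGF1R change passed without it.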

How the results depend on the processing

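The 7 tested members kept their direction under all 15 other settings, which refit the same libraries. The number of members passing as lower, 2 as reported, was 1 with upper quartile normalization, with the replicate block and with limma voom, each time because IGF1 was lost, and 0 to 2 when 1 library was left out. The number passing as higher, 0 as reported, was 1 with no filter (IGFBP1), 2 with DESeq2 (IGFBP1 and IGFBP3) and 1 with limma voom (IGFBP3), and 0 to 2 when 1 library was left out. IGFBP1 enters or leaves these counts with the filter. The cause of the other shifts was not tested. The number of pathway genes passing, 14 as reported, was 8 to 16 when 1 library was left out, and the number of all transcripts passing, 4009, was 2864 to 4982 over the settings.

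With counts not divided by length, IGFBP5 held 59.6% and 61.7% of the binding protein reads in controls and pregnant animals, and IGFBP6 6.14% and 3.22%. In pregnant animals IGFBP3 then held 10.0% and IGFBP4 24.5%. These shifts follow from the division by length.

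The replicate numbers are shared between groups, but the labels tie no number to a shared litter, batch or day. Deviations of same-numbered libraries correlated at 0.186, −0.093, −0.032 and 0.085, and 2 of 4 controls correlated best with their own number. With the replicate block 3883 transcripts passed, and IGF1 had a log2 change of −0.70 (edgeR adjusted p = 0.117). The alternatives for pathway genes were chosen after seeing the data. Depth limits IGFBP1 most, with 9 to 65 reads per pregnant library.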

Other observations

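Around IGFBP1 and IGFBP3, within 500 kb on chromosome 18, the tables hold 12 other genes, of which 10 were tested, 1 was higher and 1 lower. This share is near the 21.3% of all transcripts tested that passed. The higher one, Entrez gene 100625033, has no symbol and begins 11237 bases beyond the IGFBP1 model (54877934 to 54885316). It rose from 0.179 ± 0.0451 to 0.76 ± 0.293 CPM, a log2 change of 2.07 ± 0.43 (edgeR adjusted p = 0.00599). Its groups did not overlap, which held for 26.1% of all transcripts tested. The lower one was NACAD (log2 change −1.10 ± 0.32, edgeR adjusted p = 0.0318). The window was chosen after the values were seen.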
